A study of Rattus norvegicus with 144 samples.

Results

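Antisense assembled transcripts are RNAs that a transcript assembler placed on the strand opposite to an annotated gene. In these data they are rows whose class code, the letter that relates an assembled transcript to the annotation, was x (exons overlap a reference exon on the opposite strand) or s (an intron overlaps a reference intron on the opposite strand). Members were selected on their measured level: above 0.5 FPKM (fragments per kilobase of transcript, scaled to the mapped fragments of the library) in 6 or more rats out of 12 in every one of 4 groups of a brain region. By this rule 46 of 574751 rows were members in the prefrontal cortex (PFC), 59 of 518566 in the hippocampus (HIP) and 47 of 561241 in the striatum (STR). The rule used these levels, so they are given below as descriptions.

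The rats were adult male F344 rats and HIV-1 transgenic (HIV-1Tg) rats of the same background, which carry an HIV-1 genome without its gag and pol genes, driven by the viral LTRs in many tissues. Each strain received saline (F344_Sal, HIV_Sal) or nicotine at 0.25 mg per ml (F344_Nic, HIV_Nic), injected under the skin at 1 ml per kg, 2 times a day for 17 days. The same animals had earlier gone through behavioural tests. RNA-seq was done on 12 rats per group and region, 144 libraries in all, and the region labels could not be checked against marker genes because the tables name genes only by Ensembl identifiers.

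Natural antisense transcripts are made from the strand opposite to a gene and overlap its exons or introns. Some regulate the sense gene through transcription, chromatin or RNA pairing, others are the untranslated ends of a neighbouring gene that converges on it, and most have no known role. The s code is described in the assembler's manual as a likely sign of reads mapped to the wrong place. The library kit did not mark strand, so only splice sites can give the strand of a member. Whether every member is spliced, the very short ones included, was not checked here, and reads from a gene and its antisense partner cannot be told apart.

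Members were a small share of the antisense rows that were assembled. The PFC tables held 4047 rows with code x or s, of which 1.14% passed the rule and 66.5% were assembled in 1 rat only. In HIP 1.81% of 3256 rows passed and 63.1% were found in 1 rat only, and in STR 1.29% of 3637 passed and 62.9% were found in 1 rat only. For comparison, 26.8% of the rows that match an annotated transcript exactly (code =) passed in PFC, 28.3% in HIP and 28.3% in STR. Rows with code x or s made up 0.414% to 0.733% of the rows assembled in a PFC library, 0.445% to 0.622% in HIP and 0.457% to 0.615% in STR.

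Code x was the commoner code, with 38 x and 8 s members in PFC, 44 and 15 in HIP, and 36 and 11 in STR. The members lay opposite 45 different annotated genes in PFC, 58 in HIP and 46 in STR. None of them was placed by the assembler in the same locus as its own reference gene, while 4 PFC, 3 HIP and 2 STR members shared a locus with an exact-match row of another gene.

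Requiring more than 1 FPKM in place of 0.5 left 36 members in PFC, 51 in HIP and 42 in STR, and 0.1 FPKM gave 52, 63 and 53. In their lowest group 11 PFC, 19 HIP and 13 STR members were above 0.5 FPKM in exactly 6 rats. For the 5 PFC members closest to it, the 6th highest FPKM of their lowest group lay between 0.564 (ENSRNOG00000011911) and 0.835 (ENSRNOG00000018944). For the 5 PFC rows just outside, it lay between 0.324 (ENSRNOG00000009957) and 0.432 (ENSRNOG00000021412). In HIP the corresponding values were 0.553 (ENSRNOG00000012297) to 0.782 (ENSRNOG00000002039) inside and 0 (ENSRNOG00000015217) to 0.431 (ENSRNOG00000011911) outside. In STR they were 0.569 (ENSRNOG00000012655) to 0.968 (ENSRNOG00000013526) inside and 0.156 (ENSRNOG00000036911) to 0.360 (ENSRNOG00000029316) outside. Thus the row opposite ENSRNOG00000011911 was a member in PFC and STR and just missed the rule in HIP.

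Members were expressed at low to moderate levels. Their median level over rats was 3.12 FPKM in PFC (quartiles 1.63 and 9.53, n = 46), 3.64 in HIP (2.19 and 7.92, n = 59) and 4.63 in STR (2.12 and 9.03, n = 47). The exact-match rows passing the same FPKM rule had medians of 6.55, 6.26 and 6.32 FPKM. Single members ran from 0.729 to 105 FPKM in PFC, from 0.984 to 69.9 in HIP and from 0.894 to 102 in STR.

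**Figure D1:**
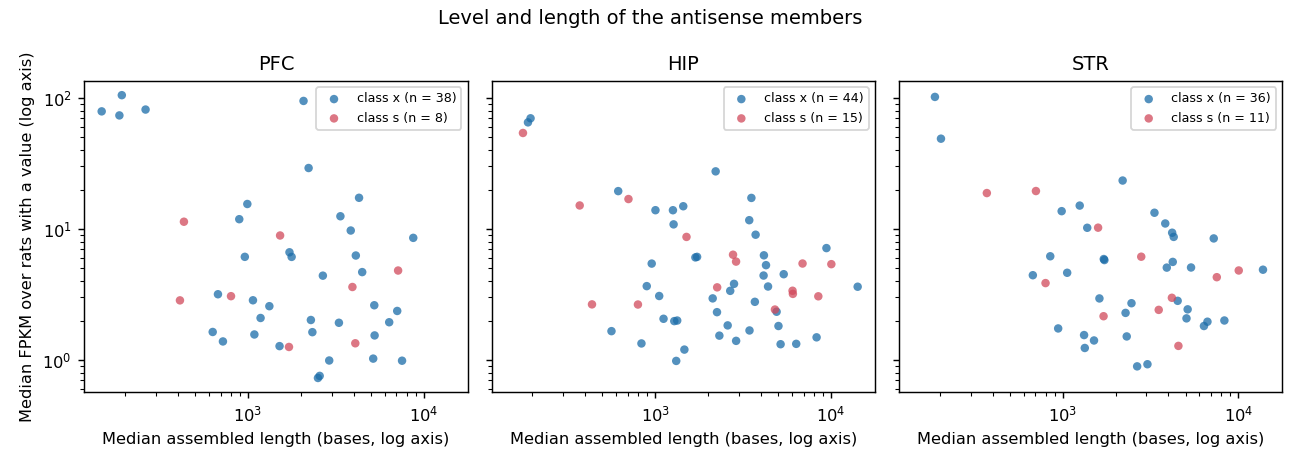
Median FPKM of each antisense member (vertical log axis) against its median assembled length in bases (horizontal log axis) in PFC, HIP and STR, with code x and code s in different colours. The few members under 300 bases include the highest of each region, and members of 5000 bases or more lie well below them.

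Several of the highest members were short. The PFC member opposite ENSRNOG00000010455 had a median of 105 FPKM and 192 bases, that opposite ENSRNOG00000042869 81.5 FPKM and 262 bases, and that opposite ENSRNOG00000007167 79.0 FPKM and 147.5 bases, the shortest of the region. In HIP the member opposite ENSRNOG00000022430, of code s and the shortest there at 177 bases, had 54.0 FPKM. Others among the highest were not short. The PFC member opposite ENSRNOG00000020248 had 94.8 FPKM at 2072.5 bases and was assembled in 28 rats, and the member opposite ENSRNOG00000005025 had 27.5 FPKM at 2206 bases in HIP and 23.4 FPKM at 2195.5 bases in STR.

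The median length of the members lay near that of annotated rows, with a wide spread. The median assembled length was 2144 bases in PFC (quartiles 969 and 4044), 2316 in HIP (1188 and 4323) and 2465 in STR (1331 and 4398), beside 2281, 2193 and 2225 for the exact-match rows that passed. Only 4, 3 and 2 members were under 300 bases, and 8, 12 and 10 had 5000 bases or more. The longest were the row opposite ENSRNOG00000014509 in HIP (14160 bases) and STR (13788 bases), and the row opposite ENSRNOG00000006001 in PFC (8718.5 bases). Relative to the annotated transcript on the other strand, the median member had 0.776 times its length in PFC, 0.810 times in HIP and 0.883 times in STR, and 15 PFC, 20 HIP and 18 STR members were the longer of the pair.

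FPKM divides by length, so the level of a very short row depends on the length used. Coverage per base ran at 1.00 times the value expected from FPKM in the median PFC member and at 0.570 times in the lowest, the row opposite ENSRNOG00000010455.

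A median PFC member was assembled in 37.5 of 48 rats (27 to 48), a HIP member in 35 (25 to 48) and a STR member in 36 (25 to 48), and only 2 members in each region had a value in all 48. Of all possible member values, 21.4% were missing in PFC, 24.2% in HIP and 21.6% in STR. For 27.3%, 28.8% and 26.5% of these missing values another antisense row of the same gene, or another row of the same locus, was above 0.5 FPKM in that rat. A missing value is a structure that was not assembled in that rat, and it was left out of the values and tests below unless stated.

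With the 4 groups pooled, the median coefficient of variation of a member over rats with a value was 0.404 in PFC, 0.396 in HIP and 0.358 in STR. The median half-width of the 95% interval that came with each FPKM was 15.7%, 14.0% and 12.6% of the value. Read totals were not in the tables, so depth is known only in relative terms. Coverage per FPKM, which rises with the number of mapped reads, ranged from 2.08 to 3.56 over PFC libraries, 1.64 to 2.49 over HIP and 1.64 to 3.52 over STR.

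The level of a member was compared with the sense level, the summed FPKM of the exact-match rows of the gene it lies opposite. An exact-match row without a value added 0 to this sum. Member medians were taken over the rats with a value, and sense medians over all 48 rats of the region. Ratios of these medians thus compare different sets of rats, unless a member had a value in all 48. For ENSRNOG00000028997 in PFC, 11.4 FPKM over 35 rats stood beside a sense median of 21.1 over 48, a ratio of 0.539. The sense gene itself passed the FPKM rule for 34 PFC, 44 HIP and 34 STR members, and its median over rats was 0 for 6, 10 and 9 members. Where the sense median was above 0, the ratio of antisense to sense level had a median of 0.882 in PFC (n = 40), 0.715 in HIP (n = 49) and 0.688 in STR (n = 38). In this set 18 PFC, 17 HIP and 15 STR members were above their sense gene.

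**Figure D2:**
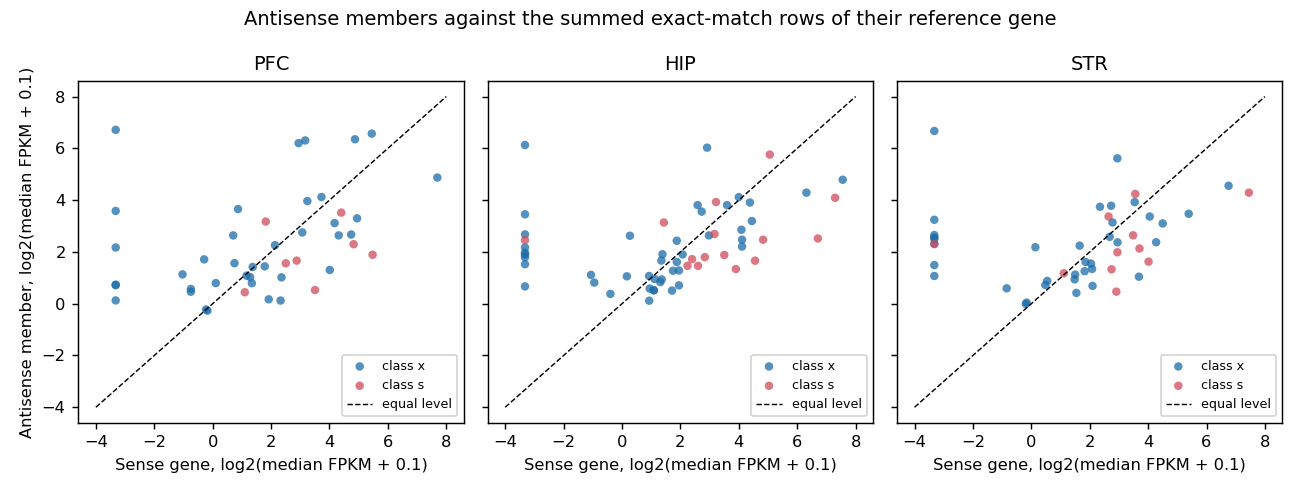
Median antisense level of each member (vertical axis) against the median summed exact-match level of its reference gene (horizontal axis) in PFC, HIP and STR, both as log2(FPKM + 0.1), with code x and code s in different colours. Antisense medians are over the rats with a value, and sense medians are over all rats of the region. The column of points at the left are members whose sense median is 0. Points above the dashed line are members higher than their sense gene by these medians.

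The pairs spanned a wide range. Among members whose sense gene itself passed the FPKM rule, the row opposite ENSRNOG00000008631 stood highest, at 9.69 times its sense level in PFC, 8.76 times in HIP and 6.42 times in STR, and it exceeded the sense level in 32 of 34, 34 of 35 and 31 of 32 rats with a value. The PFC row opposite ENSRNOG00000007167 followed at 8.88 times. Next in HIP among these was the row opposite ENSRNOG00000022382, of code s, at 3.34 times, and in STR the row opposite ENSRNOG00000029679 at 4.43 times, above sense in all 34 rats.

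At the low end stood members opposite strongly expressed genes. The HIP row opposite ENSRNOG00000019655 had 5.63 FPKM beside a sense level of 104, a ratio of 0.0539. The PFC row opposite ENSRNOG00000001415 had 3.61 FPKM beside 44.4, a ratio of 0.0812, and that opposite ENSRNOG00000022732 a ratio of 0.119. The row opposite ENSRNOG00000018795 stood at 0.108 in HIP and 0.111 in STR, with 19.5 FPKM in STR beside a sense level of 175, and the STR row opposite ENSRNOG00000036664 stood at 0.154. All but the last of these carried code s.

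Members of code s stood lower against their sense gene than those of code x in each region, as a description of these rows. The median ratio was 0.468 for s and 1.02 for x in PFC, 0.461 and 0.788 in HIP, and 0.436 and 0.798 in STR. Their own levels were not lower throughout, at 3.34 FPKM for s beside 3.02 for x in PFC, 5.39 beside 3.63 in HIP and 4.28 beside 4.76 in STR. 

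Among members with a sense level above 0 and at least 3 rats without a value, the sense median was higher in the rats without the member for 20 of 35 in PFC, 33 of 45 in HIP and 18 of 33 in STR. It was lower for the other 15 in PFC. The sense median without the member was 1.03 times that with it in the median PFC case, among members where the latter was above 0. The pairs named next are single cases with larger differences. The clearest pair was ENSRNOG00000028997. In HIP its sense level was 0 to 11.9 FPKM (median 7.34) in the 33 rats with the antisense row and 12.4 to 38.4 (median 20.1) in the 15 without it, so that the ranges did not overlap. In PFC the medians were 16.4 with and 27.4 without, and in STR 10.5 and 25.2, with overlapping ranges.

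The sense level of ENSRNOG00000011026 behaved alike in direction, with a PFC median of 0 in 34 rats with the antisense row and 9.33 in 14 rats without it. That of ENSRNOG00000022430 in HIP was 29.7 with and 67.7 without. The opposite order held for ENSRNOG00000019981, whose PFC sense median was 35.2 in 32 rats with the antisense row and 8.44 in 16 rats without it. Whether reads had moved between the antisense and the sense row was not tested.

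The regions shared much of their antisense set. Over the 3 regions the members lay opposite 80 reference transcripts, of which 22 were found in all 3 and 25 in a pair of regions, while 9 were found in PFC, 17 in HIP and 7 in STR alone. PFC and HIP shared 30 reference transcripts (66.7% of those in PFC, 51.7% of those in HIP), PFC and STR 28 (62.2% and 60.9%), and HIP and STR 33 (56.9% and 71.7%). The regions came from the same brains by the paper's account. They were assembled and tabulated separately, and their levels are set side by side here without a test.

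**Figure D3:**
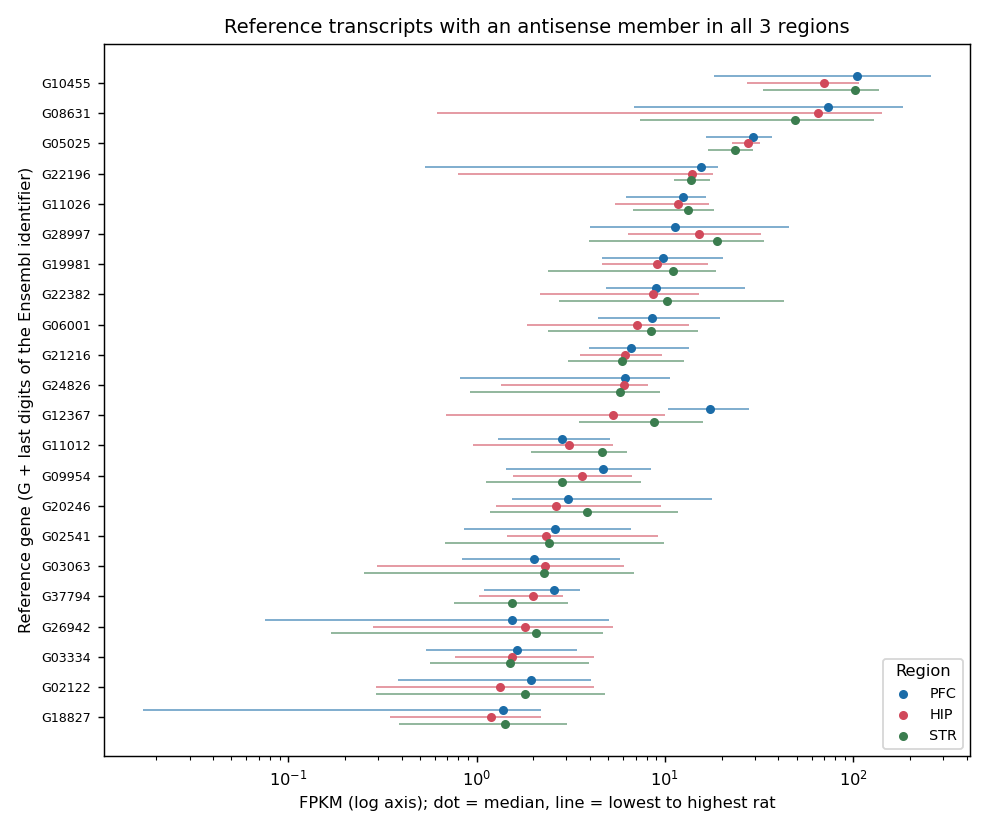
Median FPKM (log axis) in PFC, HIP and STR of the antisense rows opposite the 22 reference transcripts found in all 3 regions, with lines for the lowest and the highest rat. Region medians differ by less than 2-fold for 21 of the 22, the exception being ENSRNOG00000012367.

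The structures found in all regions were much alike. The class code was the same in every region for all 22, and for 20 the median length of the longest region was at most 1.17 times that of the shortest, the exceptions being ENSRNOG00000006001 (1.30) and ENSRNOG00000018827 (2.09). The highest region median was 1.23 times the lowest in the median case (1.06 to 3.27). Of these members 10 were above their sense gene in every region, 9 in none and 3 in 1 or 2 regions.

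The member opposite ENSRNOG00000010455 was the highest of the shared set, with medians of 105 FPKM in PFC (18.2 to 259 over 39 rats), 69.9 in HIP (27.3 to 107 over 36) and 102 in STR (33.2 to 138 over 36). Its sense median was 0 in all 3. The member opposite ENSRNOG00000008631 had 73.5, 65.1 and 48.9 FPKM in PFC, HIP and STR at about the same short length (186, 189 and 203.5 bases), beside sense levels of 7.59, 7.43 and 7.61.

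The member opposite ENSRNOG00000005025 had the lowest coefficient of variation over rats of all members in PFC (0.142) and HIP (0.0640). It was assembled in all 48 rats of each region, with 29.2 FPKM in PFC (16.5 to 37.0), 27.5 in HIP (22.7 to 31.8) and 23.4 in STR (16.9 to 29.4). It was 2215, 2206 and 2195.5 bases long, opposite a reference transcript of 350 bases, and its sense gene was far higher at 207, 189 and 108 FPKM. By the lowest of the 3 region medians, the next in the shared set were opposite ENSRNOG00000022196 (15.5, 13.9 and 13.7 FPKM in PFC, HIP and STR) and ENSRNOG00000011026 (12.5, 11.7 and 13.3).

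The 1 shared member with non-overlapping ranges between regions was opposite ENSRNOG00000012367. It had 17.3 FPKM in PFC (10.4 to 27.9 over 44 rats) and 5.29 in HIP (0.687 to 9.99 over 47), with STR between them at 8.70 (3.52 to 15.8 over 48). Its sense gene had the same order, at 13.1, 3.57 and 6.77 FPKM in PFC, HIP and STR, so that the ratio changed little, from 1.32 to 1.48 to 1.28.

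Some libraries stood apart from the rest of their region. Correlations were taken over the exact-match rows that passed the FPKM rule and had a value in every library of the region. The median correlation of a library with the others of its region was 0.638 in PFC, 0.656 in HIP and 0.644 in STR. It was 0.495 for HIV_Nic replicate 10 and 0.579 for HIV_Nic replicate 11 of PFC and 0.603 for HIV_Nic replicate 4 of HIP. Next lowest in HIP were F344_Sal replicate 10 (0.613) and HIV_Sal replicate 6 (0.617), and the lowest of STR were HIV_Sal replicate 6 (0.599) and F344_Sal replicate 10 (0.605). Each of these 7 libraries was left out in turn from the tests of its region. HIV_Nic replicate 10 of PFC had a summed member level of 908 FPKM, the highest of the region, and held the highest value of all rats for 10 of its 31 assembled members, while a median PFC library did so for 1. HIV_Nic replicate 4 of HIP did so for 10 of 45.

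The member opposite ENSRNOG00000022196 was low in 3 of these libraries. It had 0.534 FPKM in HIV_Nic replicate 10 and 0.577 in HIV_Nic replicate 11 of PFC, while the other PFC rats with a value ran from 8.73 to 19.2. In HIV_Nic replicate 4 of HIP it had 0.801 FPKM, also the lowest of that region. The sense level of this gene was 0.248, 0 and 0 FPKM in the 3 libraries, beside PFC and HIP medians of 9.36 and 5.92.

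Group effects were tested on log2(FPKM + 0.1) with limma across all tested rows (17477 in PFC, 18501 in HIP, 18625 in STR). A row was called when its unadjusted p was below 0.05 and its fold change above 1.2, and adjusted values are Benjamini-Hochberg over all rows of a region. In whole tissue, fewer cells of a type and less RNA per cell cannot be told apart. The 3 contrasts share groups, so their values are given side by side.

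Few members were called between HIV_Sal and F344_Sal, the contrast of the strains under saline. In PFC 0 of 46 members were called by limma, with 0 below an unadjusted p of 0.05, against 1.75% of all rows called higher and 2.56% called lower. In HIP 4 of 59 were called higher (6.78%, background 2.46%) and 1 lower (1.69%, background 2.58%). In STR 0 of 47 were called higher (background 1.7%) and 1 lower (2.13%, background 4.71%). No member passed the adjusted threshold, which 0.0458% of all rows passed in PFC, 0.0541% in HIP and 0.113% in STR.

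The HIP row opposite ENSRNOG00000024826 had 1.36, 3.22 and 6.90 FPKM (lowest, median and highest of 8 rats) in F344_Sal and 2.87, 7.10 and 8.15 (11 rats) in HIV_Sal. The groups overlapped, and the log2 difference was 0.81 ± 0.26 (SE; limma, unadjusted p = 0.00314, adjusted p = 0.632). The HIP row opposite ENSRNOG00000019981 had 4.66, 8.27 and 13.3 FPKM (9 rats) in F344_Sal and 8.85, 13.8 and 16.9 (10 rats) in HIV_Sal, a log2 difference of 0.63 ± 0.20 (adjusted p = 0.663). The other HIP rows called higher lay opposite ENSRNOG00000004604 and ENSRNOG00000001575, and were named after their values were seen.

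The lower row in HIP was that opposite ENSRNOG00000012367, with 1.15, 6.76 and 7.55 FPKM (11 rats) in F344_Sal and 0.687, 2.98 and 9.99 (12 rats) in HIV_Sal, a log2 difference of -0.65 ± 0.32 (unadjusted p = 0.0498, adjusted p = 0.843). That call was lost under 6 alternatives (unadjusted p 0.0504 to 0.694), namely a pseudocount of 0.01, no filter on low values, missing values as 0, a fit of the 2 groups compared, a replicate block, and without HIV_Nic replicate 4. The lower row in STR was that opposite ENSRNOG00000010455, with 88.5, 103 and 138 FPKM (9 rats) in F344_Sal and 33.2, 79.6 and 104 (9 rats) in HIV_Sal, a log2 difference of -0.56 ± 0.16 (adjusted p = 0.209). The groups overlapped in both cases.

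Nicotine in HIV-1Tg rats gave similarly few calls. In PFC 1 of 46 members was called higher and 1 lower (2.17% each, background 4.1% and 3.44%). In HIP 3 of 59 were higher (5.08%, background 3.42%) and 1 lower (1.69%, background 1.82%). In STR 2 of 47 were higher (4.26%, background 2.89%) and 1 lower (2.13%, background 3.9%). After adjustment limma called 0 members in any region, beside 0% of all rows in PFC and HIP and 0.113% in STR.

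In PFC the higher row was opposite ENSRNOG00000010319, with 0.889, 1.08 and 1.30 FPKM (6 rats) in HIV_Sal and 1.16, 1.66 and 4.81 (6 rats) in HIV_Nic, a log2 difference of 0.81 ± 0.27 (adjusted p = 0.539). The lower row was opposite ENSRNOG00000022196, with 11.8, 16.1 and 18.6 FPKM in HIV_Sal and 0.534, 15.4 and 19.2 in HIV_Nic (12 rats each), a log2 difference of -0.82 ± 0.37 (adjusted p = 0.59). That call rested on the libraries set apart above, since the difference was -0.47 without HIV_Nic replicate 10 and -0.48 without HIV_Nic replicate 11, and the call was lost in both fits.

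In HIP the row opposite ENSRNOG00000019981, called higher in HIV_Sal above, had 5.40, 6.50 and 13.6 FPKM (8 rats) in HIV_Nic, a log2 difference from HIV_Sal of -0.70 ± 0.21 (adjusted p = 0.553). The row opposite ENSRNOG00000012367 had 1.82, 6.74 and 7.81 FPKM (12 rats) in HIV_Nic, 0.80 ± 0.31 above HIV_Sal (adjusted p = 0.638). The row opposite ENSRNOG00000010455 was 0.43 ± 0.20 higher (adjusted p = 0.67), and the third higher row lay opposite ENSRNOG00000014482, named after its values were seen. Without HIV_Nic replicate 4, ENSRNOG00000010455 was 0.40 higher and no longer called (unadjusted p = 0.0598), and 2 members were called higher and 2 lower (together 6.78%, all rows 4.25%). These contrasts share the HIV_Sal libraries with the strain contrast.

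In STR the higher rows were opposite ENSRNOG00000003374 (log2 difference 0.47 ± 0.19, 1.77 FPKM in HIV_Sal and 2.23 in HIV_Nic, medians of 10 rats each) and ENSRNOG00000010455 (0.36 ± 0.17, medians 79.6 and 106 of 9 and 8 rats). The lower row was opposite ENSRNOG00000018827 (-0.61 ± 0.25, medians 1.68 and 1.03 of 11 and 10 rats). Adjusted p-values were 0.508, 0.601 and 0.489, and the ranges of the groups overlapped in all 3. Without HIV_Sal replicate 6, 5 STR members were called in this contrast (10.6%, all rows 6.52%).

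Nicotine in F344 rats was the contrast with adjusted calls. In PFC 5 of 46 members were called lower (10.9%) and 0 higher, while 7.96% of all rows were lower and 2.74% higher. Of these, 3 passed the adjusted threshold, 6.52% of the members, beside 5.62% of all rows, so the share of members called was close to that of the whole table. In HIP 3 of 59 were higher (5.08%, background 2.55%) and 4 lower (6.78%, background 3.38%), and in STR 0 of 47 were higher (background 1.55%) and 1 lower (2.13%, background 2.61%). In these regions limma called 0 members after adjustment, beside 0.00541% and 0% of all rows. With missing values set to 0 none of the 7 HIP members was called, beside 4.97% of all rows.

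**Figure D4:**
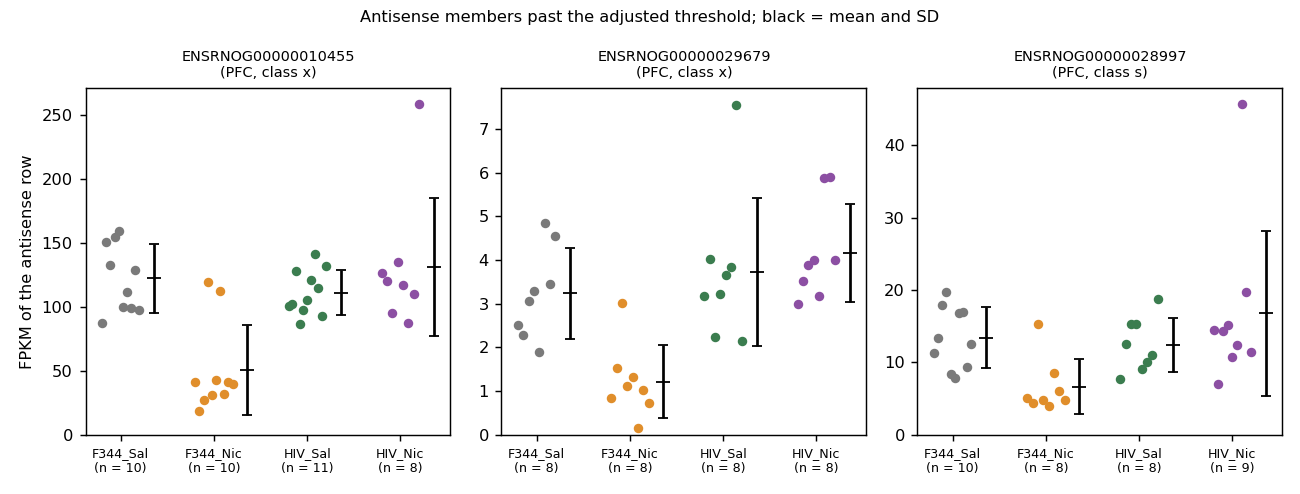
FPKM (vertical axis, linear, from 0) in each PFC rat with a value for the antisense rows opposite ENSRNOG00000010455, ENSRNOG00000029679 and ENSRNOG00000028997, by group, with the group mean and SD in black. The F344_Nic mean is the lowest in each panel, and F344_Nic replicate 4 is the highest rat of its group in all 3.

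The row opposite ENSRNOG00000010455 in PFC had 87.0, 120 and 159 FPKM (lowest, median and highest of 10 rats) in F344_Sal and 18.2, 40.0 and 119 (10 rats) in F344_Nic. Of the F344_Nic rats 8 were below the lowest F344_Sal rat, and the other 2, replicate 4 the higher, sat within the F344_Sal range. These 2, replicates 4 and 8, were also the most deeply sequenced of the group, with coverage per FPKM of 3.55 and 3.40 beside 2.28 to 2.59 in the other F344_Nic rats and 2.12 to 3.53 in F344_Sal. They held 53736 and 52992 assembled rows, beside 45007 to 47656 in the other F344_Nic rats and 45634 to 52447 in F344_Sal. The part of depth in the result was not tested. HIV_Sal had 86.4, 105 and 141 (11 rats) and HIV_Nic 86.9, 119 and 259 (8 rats). The log2 difference of F344_Nic from F344_Sal was -1.49 ± 0.23 (adjusted p = 6.56e-06), and it was -1.66 without replicate 4 and -1.65 without replicate 8 of F344_Nic.

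The PFC row opposite ENSRNOG00000029679 (transcript ENSRNOT00000043647) had 1.89, 3.18 and 4.85 FPKM in F344_Sal and 0.139, 1.07 and 3.02 in F344_Nic (8 rats each), and 7 F344_Nic rats were below the lowest F344_Sal rat. The log2 difference was -1.57 ± 0.33 (adjusted p = 0.00118). The exact-match row of the gene differed by -0.45 ± 0.46 and was not called (unadjusted p = 0.334).

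The PFC row opposite ENSRNOG00000028997 (transcript ENSRNOT00000046385), of code s, had 7.85, 12.9 and 19.7 FPKM in F344_Sal (10 rats) and 4.01, 4.90 and 15.3 in F344_Nic (8 rats), with 6 F344_Nic rats below the lowest F344_Sal rat. The log2 difference was -1.09 ± 0.27 (adjusted p = 0.00813). The exact-match row of the gene moved the other way, by 0.51 ± 0.19 (unadjusted p = 0.00923), called at the unadjusted threshold only. Summed over both strands, with a missing antisense value as 0, the gene had 22.5, 28.2 and 37.1 FPKM in F344_Sal and 25.8, 30.3 and 33.1 in F344_Nic (12 rats each), so the 2 groups overlapped almost wholly in the sum.

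Summed in the same way, ENSRNOG00000029679 had medians of 3.01 FPKM in F344_Sal and 1.23 in F344_Nic, and ENSRNOG00000010455 105 and 35.3, so these 2 sums stayed lower in F344_Nic. With missing antisense values set to 0 the log2 differences were -1.24 for ENSRNOG00000010455, -1.04 for ENSRNOG00000029679 and -1.89 for ENSRNOG00000028997, and none of the 3 calls held. The remaining PFC rows called lower lay opposite ENSRNOG00000026942 (-0.86 ± 0.41) and ENSRNOG00000011012 (-0.41 ± 0.19), which did not pass the adjusted threshold and were named after their values were seen.

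In the other regions the same rows had different values. The row opposite ENSRNOG00000010455 differed by -0.43 ± 0.21 in HIP (adjusted p = 0.672) and by -0.09 ± 0.16 in STR (adjusted p = 0.991) between F344_Nic and F344_Sal. The row opposite ENSRNOG00000029679 differed by 0.03 ± 0.21 in STR, and that opposite ENSRNOG00000028997 by -0.28 ± 0.31 in HIP and 0.06 ± 0.32 in STR. Whether the regions differ from each other was not tested.

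Among the HIP calls in F344 rats, the row opposite ENSRNOG00000024826 had 4.30, 5.77 and 7.86 FPKM (7 rats) in F344_Nic, 0.84 ± 0.28 above F344_Sal (adjusted p = 0.495). That opposite ENSRNOG00000000581, of code s, had 2.95, 3.20 and 4.18 FPKM (9 rats) in F344_Nic and 2.54, 2.62 and 3.16 (6 rats) in F344_Sal, a log2 difference of 0.28 ± 0.12. The lower rows opposite ENSRNOG00000009630 (-0.86 ± 0.33) and ENSRNOG00000013526 (-0.82 ± 0.34) overlapped between the groups as well.

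The remaining HIP calls in this contrast were the higher row opposite ENSRNOG00000004604 and the lower rows opposite ENSRNOG00000010455 and ENSRNOG00000002039, the first and last named after their values were seen. The 1 STR row, opposite ENSRNOG00000030568, had 2.40, 4.12 and 5.82 FPKM (8 rats) in F344_Sal and 0.711, 2.54 and 5.88 (9 rats) in F344_Nic, a log2 difference of -0.68 ± 0.29 (adjusted p = 0.938). In a fit of these 2 groups alone its call was lost (unadjusted p = 0.0513) and 1 other member was called higher, that opposite ENSRNOG00000011911, named after its values were seen. Without F344_Sal replicate 10, 2 STR members were called in this contrast (4.26%, all rows 4.42%).

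**Figure D5:**
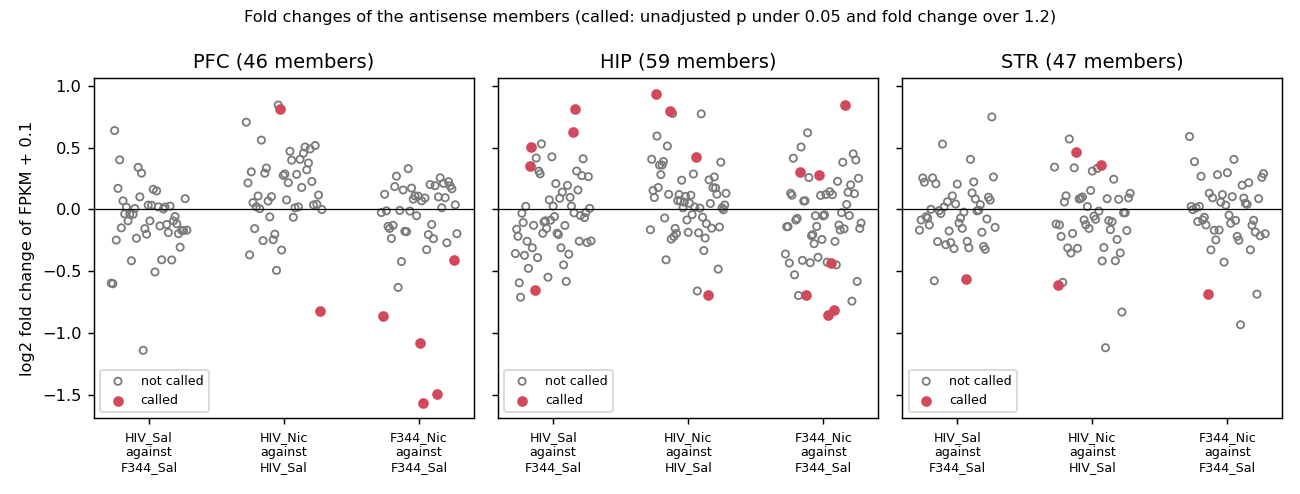
Log2 fold change of each antisense member (vertical axis, FPKM + 0.1) for the strain contrast and the nicotine contrasts in HIV-1Tg and F344 rats, by region, with called members filled. Members spread around 0 in every contrast, and the lowest points of the F344 nicotine contrast in PFC are the rows opposite ENSRNOG00000029679 and ENSRNOG00000010455.

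Over all members of a region, the median log2 difference was -0.09, 0.15 and -0.01 in PFC for the strain contrast, nicotine in HIV-1Tg and nicotine in F344 rats, -0.07, 0.07 and -0.07 in HIP, and -0.02, -0.08 and -0.00 in STR. Over all rows the medians were -0.03, 0.02 and -0.01 in PFC, -0.01, 0.04 and -0.03 in HIP, and -0.06, -0.02 and -0.04 in STR.

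The difference between the strains in the nicotine effect was tested as an interaction. The median difference over members was 0.26 in PFC, 0.19 in HIP and -0.11 in STR, beside 0.04, 0.07 and 0.02 over all rows. In PFC 3 of 46 members were called (6.52%, background 11.9%), and the same 3 passed the adjusted threshold beside 4.14% of all rows. They were the rows opposite ENSRNOG00000010455 (1.67 ± 0.33, HIV-1Tg minus F344 on the log2 scale, adjusted p = 0.000657), ENSRNOG00000029679 (1.78 ± 0.46, adjusted p = 0.0168) and ENSRNOG00000028997 (1.37 ± 0.39, adjusted p = 0.0337). The adjusted p of the last was 0.0656 without the filter on low values and 0.057 with median scaling, and with missing values as 0 none of the 3 was called. With a replicate block only the row opposite ENSRNOG00000010455 still passed the adjusted threshold. Within HIV-1Tg rats the same rows differed by 0.18 ± 0.24, 0.22 ± 0.33 and 0.29 ± 0.28 with nicotine, and none was called.

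In HIP 10 of 59 members were called in the interaction, 6 with a higher difference in HIV-1Tg rats and 4 with a lower, together 16.9%, beside 7.97% of all rows. With missing values set to 0 it was 4, and the share of 6.78% was then close to that of all rows (6.17%). Without each HIP library set apart above it was 8 to 10 (13.6% to 16.9%, all rows 6.37% to 8.64%). The split turned to 4 higher and 5 lower with median scaling and without HIV_Nic replicate 4. The smallest p belonged to the row opposite ENSRNOG00000019981, at -1.08 ± 0.29 (unadjusted p = 0.000654, adjusted p = 0.366). In STR 1 of 47 was called (2.13%, background 4.84%), the row opposite ENSRNOG00000003374, and 2 were called without HIV_Sal replicate 6 or without F344_Sal replicate 10 (4.26%, all rows 5.09% and 5.16%). After adjustment limma called 0 members in both regions, beside 0% of all rows, while with outlying values removed 1 of 52 HIP members passed (ENSRNOG00000001575, named after its values were seen) beside 0.344% of all rows.

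The sense partner rows were tested in the same fits. Exact-match rows of 34 PFC, 44 HIP and 34 STR reference genes were tested, 36, 46 and 35 rows in all. In PFC 2 rows were called for the strain contrast (5.56%), 2 for nicotine in HIV-1Tg rats (5.56%) and 1 for nicotine in F344 rats (2.78%), beside 4.21%, 7.67% and 9.91% of all exact-match rows tested. In HIP 3, 3 and 6 were called (6.52%, 6.52% and 13.0%), beside 4.64%, 4.98% and 5.67%. In STR 1, 2 and 1 were called (2.86%, 5.71% and 2.86%), beside 5.94%, 6.59% and 4.02%. After adjustment limma called 0 sense partner rows, while with outlying values removed 2 passed in PFC (ENSRNOG00000012367 in the strain contrast and ENSRNOG00000028997 for nicotine in F344 rats) and 1 in HIP (ENSRNOG00000019981 for nicotine in F344 rats). In those 3 comparisons 0.380%, 9.65% and 0.547% of all exact-match rows passed.

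In these contrasts a called antisense row and a called sense row of 1 gene met in PFC for ENSRNOG00000028997, described above. They also met in the HIP strain contrast for ENSRNOG00000012367. Its sense row was 1.65 ± 0.74 higher in HIV_Sal. Its antisense row was lower, by a call that was lost under the alternatives given above. With outlying values removed the sense difference was -0.07 and was not called (limma, unadjusted p = 0.765). The sense call was also lost with a pseudocount of 1, in a fit of the 2 groups compared and without HIV_Sal replicate 6 (unadjusted p 0.052 to 0.0886). In the HIP interaction called rows of both strands met for ENSRNOG00000019981 (antisense -1.08 ± 0.29, sense -1.79 ± 0.77) and ENSRNOG00000022196 (antisense -0.93 ± 0.42, sense -3.58 ± 1.23), the latter named after its values were seen. Without HIV_Nic replicate 4 the values of ENSRNOG00000022196 were -0.58 and -3.21, both still called, while with a replicate block its antisense call was lost. With outlying values removed its antisense value was -0.34, still called, and its sense value was -0.36, no longer called (limma, unadjusted p = 0.165). With missing values set to 0 neither row of ENSRNOG00000019981 was called.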

How the data were processed

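The deposited tables, 1 per strain and region (6 in all), hold per rat an FPKM value with its interval, coverage and length for every assembled transcript. The authors aligned TruSeq RNA-seq reads (TopHat and Bowtie 1.04, per the submitters' processing notes) to Rn4 and assembled them with Cufflinks, and the rows carry cuffcompare class codes. All 144 columns were used, and 0 were left out.

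The members and lists were chosen with earlier results of these data known. Rows were paired between the strain tables by identifier, and a cell listing several transcripts was read by its first. log2(FPKM + 0.1) was fitted in R 4.3.3 with limma 3.58.1 as 4 group means per region with an intensity trend, over all rows above 0.5 FPKM in at least 6 rats of each of the 4 groups, with missing values left out. Calls needed p below 0.05 and a fold change above 1.2, and adjustment was Benjamini-Hochberg. Values were summarised with Python 3.11.15. The code was tested on simulated data. Rats are the replicates. Named members were the 5 highest, the 2 highest and 2 lowest against their sense gene, the longest and shortest, those nearest the rule's limits, the 2 called members with the smallest p per direction and contrast, every member called after adjustment, and the 5 highest shared by all 3 regions.

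Alternatives were another pseudocount (1 or 0.01), every row with 6 values per group, missing values as 0, scaling to the median, removal of outlying values, a fit of the 2 groups compared, a replicate block, other limits of the rule, and leaving out libraries, of which the 24 F344 libraries of PFC and the HIP and STR libraries other than HIV_Nic replicate 4 were chosen after seeing the data.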

Additional observations from a re-analysis of the deposited data

Results flagged for a closer look

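In PFC the effect of nicotine on 3 antisense rows differed between the strains by a test of the difference itself, the interaction term of the limma fit. The difference (HIV-1Tg minus F344, log2 scale) was 1.67 for the row opposite ENSRNOG00000010455, 1.78 for that opposite ENSRNOG00000029679 and 1.37 for that opposite ENSRNOG00000028997. These 3 were 6.52% of the PFC members, beside 4.14% of all rows after adjustment, and at the unadjusted threshold the same 6.52% stood beside 11.9%. In all 3 the F344_Nic median was below that of F344_Sal, while the difference between HIV_Nic and HIV_Sal did not pass the test. Leaving out each of the 24 F344 libraries in turn, or HIV_Nic replicate 10 or 11, gave 1.52 to 1.84 for the first, 1.47 to 2.00 for the second and 1.17 to 1.56 for the third, whose adjusted p reached 0.0623. With missing values set to 0 none of the 3 was called, and the difference of ENSRNOG00000010455 was -1.16. With a replicate block the adjusted p was 0.00212 for ENSRNOG00000010455, 0.13 for ENSRNOG00000029679 and 0.0571 for ENSRNOG00000028997.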

How the results depend on the processing

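Counts of members called were small, so single members moved them. With missing values set to 0 the counts fell to 0 for nicotine in HIV-1Tg rats (2 as reported), 1 for nicotine in F344 rats (5) and 0 for the interaction (3) in PFC, to 3 (5) for the strain contrast, 2 (4), 0 (7) and 4 (10) in HIP, and to 0 (1) for nicotine in F344 rats in STR, where the strain contrast gave 2 (1). Over the 12 comparisons 3.73% to 9.05% of all rows were then called (4.16% to 11.9% as reported). The interaction of ENSRNOG00000010455 in PFC then reversed to -1.16, and its difference between HIV_Nic and HIV_Sal in STR to -0.55. Removal of outlying values left 41, 52 and 44 members to test in PFC, HIP and STR and raised the calls over all rows as well. PFC then gave 5 members for nicotine in HIV-1Tg rats (12.2%, all rows 10.5%), 3 in F344 rats (7.32%, 16.6%) and 7 for the interaction (17.1%, 18.6%), 4 of these after adjustment beside 8.38% of all rows, and HIP 7 for nicotine in HIV-1Tg rats (13.5%, 9.59%). STR gave 2, 8, 3 and 3 for the strain, the 2 nicotine contrasts and the interaction (4.55%, 18.2%, 6.82% and 6.82%, all rows 11.7%, 12.1%, 8.82% and 10.5%). Summed over the 3 contrasts, the called sense rows then numbered 9 (5) in PFC, 2 of them after adjustment, and 19 (4) in STR, with 10 (12) in HIP, 1 of them after adjustment. Of all exact-match rows 9.15% to 16.8% were called per contrast. No share of the sense rows is given for this fit, so these sums are not compared with that range. Median scaling gave 3 for nicotine in F344 rats in PFC (6.52%, all rows 10.9%) and 2 for nicotine in HIV-1Tg rats in HIP (3.39%, 4.98%). A fit of the 2 groups compared gave 1 for nicotine in HIV-1Tg rats in PFC (2.17%, 5.30%), and a pseudocount of 1 gave 2 for nicotine in F344 rats in STR (4.26%, 3.72%). Causes were not tested.

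Leaving out 1 F344 library gave 3 to 6 calls for nicotine in F344 rats in PFC (3 without F344_Nic replicate 8 or F344_Sal replicate 3 or 12), 6.52% to 13.0% beside 10.4% to 11.1% of all rows, always with 3 after adjustment. The interaction gave 3 to 7 (5 without F344_Nic replicate 1, 7 without F344_Sal replicate 6), 6.52% to 15.2% beside 11.5% to 12.2%. Nicotine in HIV-1Tg rats gave 1 to 2, 1 without HIV_Nic replicate 10 (2.17%, 4.89%). In STR there were 3 to 5 for nicotine in HIV-1Tg rats, 1 to 2 for nicotine in F344 rats and 2 for the interaction (1 as reported), with the shares given above. A value in 12 of 12 rats of each group left 2 members per region. Of 23 values of named members, 20 lost the call and 2 reversed with missing values set to 0, and that of ENSRNOG00000024826 in the HIP strain contrast held. Calls lost under other alternatives were 4 of 20 in fits of the 2 groups compared, 3 of 23 with outlying values removed, 2 of 23 with a replicate block, 1 of 23 each with median scaling, without the filter and with a pseudocount of 1 or 0.01, 2 of 10 without HIV_Nic replicate 4 in HIP, and 1 of 8 without HIV_Nic replicate 10 or 11 in PFC, and leaving out the other libraries lost 0.

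The labels do not say whether rats with the same replicate number were paired. Of 72 pairs of same-numbered rats per region, 0, 0 and 1 had deviations correlated over 0.1 in PFC, HIP and STR. These correlations cannot decide what the numbers stand for. With a replicate block 1 PFC member was called in the strain contrast (0 without; 2.17%, all rows 4.26%) and 2 STR members for nicotine in F344 rats (4.26%, 4.19%). In PFC 3 members still passed the adjusted threshold for nicotine in F344 rats (all rows 5.48%) and 1 for the interaction (4.03%).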
